A study of Mus musculus with 3 samples.

Results

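Among the mouse cells sorted for a motor neuron reporter after 14 days of conversion without supplements, 562 cells carried a strong collagen transcript. They were chosen by a rule on raw counts of unique molecular identifiers (UMIs, 1 per captured RNA molecule): at least 10 UMIs of Col1a1, a chain of type I collagen, and at most 1 UMI of Stmn2, a neuronal microtubule regulator. These Col1a1-high cells were 15.1% of the 3716 cells of that library with at least 500 genes and at most 20% mitochondrial UMIs (exact binomial 95% interval 14.0 to 16.3%), and 562 of 10522 such cells in the series. They were set against the 2676 cells of the same library with at most 2 Col1a1 UMIs, called comparison cells. A further 451 cells had 3 to 9 Col1a1 UMIs, and 27 had at least 10 together with 2 or more of Stmn2.

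The starting cells were mouse embryonic fibroblasts of Hb9::GFP genotype, in which regulatory sequence of Mnx1 (Hb9), a motor neuron gene, drives green fluorescent protein. All 3 libraries received a cassette called LNI, which carries Lhx3, Neurog2 and Isl1, and a second called DDRR, which carries HRAS(G12V), an active Ras, and p53DD, a dominant-negative fragment of p53. Cells without supplements were sorted as reporter-positive at 14 days post infection (dpi), and so were cells given BDNF, CNTF, GDNF, FGF and RepSox, an inhibitor of the TGF-beta type I receptor. A 4 dpi library with supplements was sorted for low CellTrace-FarRed, a dye that dividing cells dilute, and not for the reporter. Cells at 14 dpi were released with papain and DNase, those at 4 dpi with trypsin. Each group is 1 library, so no test between cells or libraries was made, and every interval below covers counting error only.

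Fibroblasts build connective tissue by secreting collagens, proteoglycans and glycoproteins, and they remodel it with proteases and crosslinking enzymes such as lysyl oxidase. In conversion of fibroblasts to neurons this program has to give way to neuronal genes. The reporter transcript, listed as v.EGFP, is read out here in the same cells as both programs. The 3′ counts do not separate introduced from endogenous copies of Lhx3, Neurog2, Isl1, Hras or Trp53.

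The Col1a1-high cells held a median of 11265 UMIs, 3281.5 genes and 3.64% mitochondrial UMIs, and comparison cells held 10560 UMIs, 3426.5 genes and 4.95%. Their Col1a1 count had a median of 21 UMIs (quartiles 14 and 35, highest 325), and the median of comparison cells was 0. The doublet caller marked 2 cells of the library and so did not work. In its place, cells in the top 5% of doublet scores were counted: 3.02% of Col1a1-high cells and 4.48% of comparison cells, but 55.6% of the 27 cells with both Col1a1 and Stmn2. The library shared 3 cell barcodes with the 14 dpi library with supplements and 4 with the 4 dpi library, and 1 Col1a1-high cell was in each of these. Cells just inside the rule (10 to 12 Col1a1 UMIs, 105 cells) and just outside it (7 to 9 UMIs, 115 cells) had 3730 and 3877 CPM of Mgp and 1243 and 1296 CPM of v.EGFP. CPM is the number of a gene's UMIs, summed over the cells named, per 1000000 UMIs. Levels of Mgp and v.EGFP did not step at the Col1a1 limit of the rule. They differed more across its Stmn2 limit, among cells with at least 10 Col1a1 UMIs. The 30 cells with 1 Stmn2 UMI had 4184 CPM of Mgp and 737 CPM of v.EGFP. The 10 cells with 2 to 3 had 2741 CPM and 1312 CPM.

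**Figure D1:**
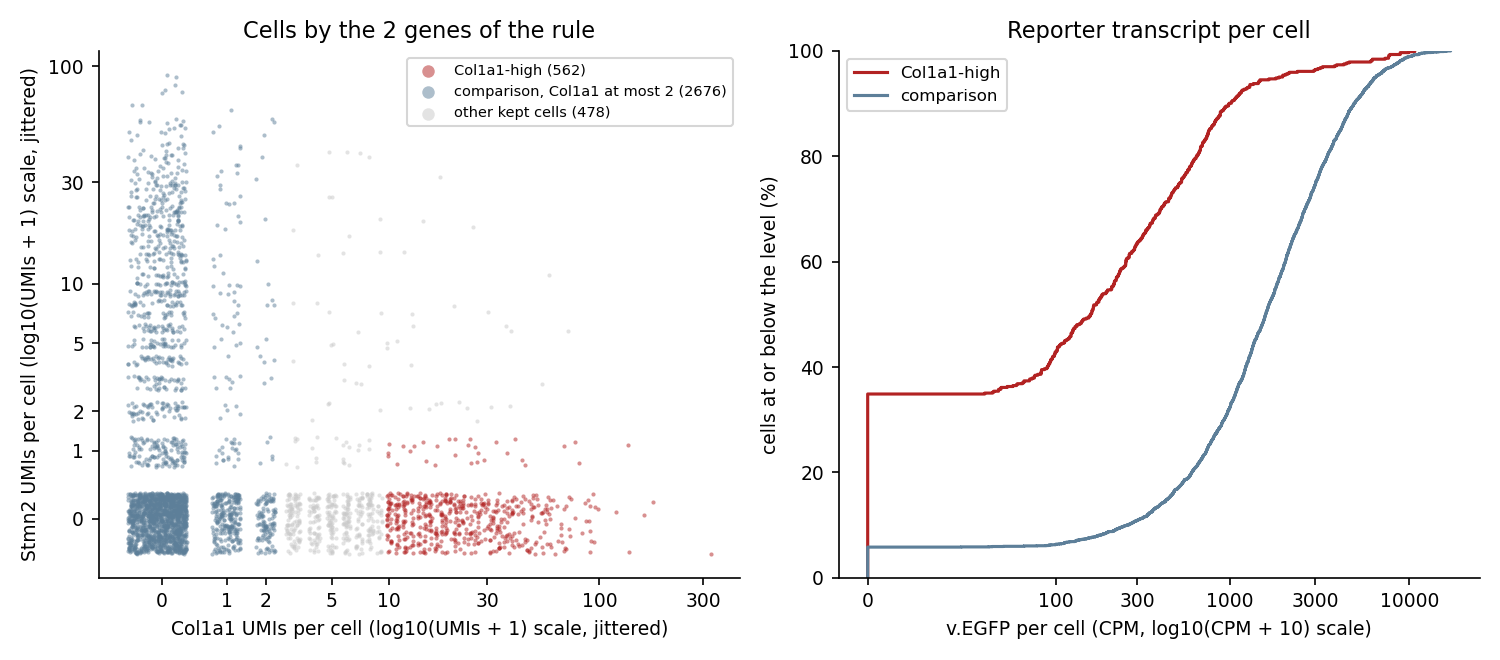
Left, Stmn2 against Col1a1 UMIs for each of the 3716 cells on log10(UMIs + 1) axes with jitter, coloured by the rule; the Col1a1-high cells lie along the bottom right. Right, the percentage of cells at or below each v.EGFP level in CPM of that cell on a log10(CPM + 10) axis, with 34.9% of Col1a1-high cells and 5.83% of comparison cells at 0.

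The other marker genes were all far higher in the Col1a1-high cells. Mgp, matrix Gla protein, an inhibitor of calcification, stood at 5082 CPM in Col1a1-high cells and 271 CPM in comparison cells, a log2 ratio of 4.23. H19, an imprinted long non-coding RNA, had 1022 CPM in Col1a1-high cells and 60.4 CPM in comparison cells, a log2 ratio of 4.08. Lox, which crosslinks collagen and elastin, had 341 CPM in Col1a1-high cells and 27.8 CPM in comparison cells, a log2 ratio of 3.62. Mmp3, the protease stromelysin-1, had 501 CPM in Col1a1-high cells and 5.22 CPM in comparison cells, a log2 ratio of 6.58 (6.36 to 6.82). Col1a1 itself, at 2209 against 18.5 CPM, and Stmn2, at 4.11 against 341 CPM, are the rule and no finding.

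These markers were spread over the cells in different ways. After each cell was thinned to 3000 UMIs (5 Col1a1-high and 72 comparison cells were too shallow), Mgp was seen in 90.3% of Col1a1-high cells and 18.0% of comparison cells. H19 was seen in 62.7% of Col1a1-high cells and 8.06% of comparison cells, and Lox in 48.7% and 7.33%. Mmp3 was seen in 18.0% of Col1a1-high cells and 0.845% of comparison cells, and 94.3% of its UMIs came from the top 10% of the Col1a1-high cells. Mmp3 therefore marks a minority of them, while Mgp marks nearly all.

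Of 8843 genes at 10 CPM or more over all kept cells, 561 (6.34%) were higher by 2-fold or more and 1262 (14.3%) lower by as much in Col1a1-high cells, each with an interval that excludes no change. Since the cells were split by 2 genes that vary with many others, these counts describe the split and test nothing. The median log2 ratio over all genes was -0.22. Among genes at 50 CPM or more over all kept cells, the highest ratios besides the markers were those of the 8 genes that follow. Decorin, Dcn, a collagen-binding proteoglycan, had 695 CPM in Col1a1-high cells and 9.09 CPM in comparison cells, a log2 ratio of 6.26. Its relative lumican, Lum, had 263 CPM in Col1a1-high cells and 7.65 CPM in comparison cells. Lcn2, a secreted iron-siderophore carrier, had 253 CPM in Col1a1-high cells and 10.0 CPM in comparison cells. Igfbp7 (log2 ratio 4.55), Col3a1 (4.35), Col12a1 (4.12), the chemokine Ccl2 (3.79) and thrombospondin-1, Thbs1 (3.48), were the others.

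Structural matrix genes were higher as a body. All 6 measured fibrillar collagens other than Col1a1 were at least 2-fold higher, with a median log2 ratio of 3.11, against the 6.34% of all genes. Col1a2, the partner chain of type I collagen, had 3418 CPM in Col1a1-high cells and 490 CPM in comparison cells. Of 8 other collagens 6 were higher and none lower, led by Col12a1, with Col8a1 (log2 ratio 0.24) and Col18a1 (0.56) short of 2-fold. Of 24 matrix glycoproteins 20 were higher and none lower (median 2.11), among them elastin, Eln (114 and 8.44 CPM in Col1a1-high and comparison cells), and fibronectin, Fn1 (715 and 129 CPM in Col1a1-high and comparison cells). Of 13 proteoglycans 9 were higher and none lower (median 2.20), including osteoglycin, Ogn, at 77.9 CPM in Col1a1-high cells and 1.07 CPM in comparison cells.

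The machinery that folds, crosslinks and cuts this matrix was raised less evenly. Of 18 collagen processing genes 11 were higher and 1 lower (median 1.23). The collagen chaperone Serpinh1 had 1155 CPM in Col1a1-high cells and 376 CPM in comparison cells, and Pcolce2, an enhancer of procollagen cleavage, was the lower one at 10.6 CPM against 21.5 CPM. Of the 19 matrix proteases only 7 passed the filter, and 5 of these were higher, including the gelatinase Mmp2 at 362 CPM in Col1a1-high cells and 118 CPM in comparison cells. Of 6 protease inhibitors 3 were higher, led by Timp1 at 474 CPM in Col1a1-high cells and 46.9 CPM in comparison cells. Timp3, at 84.9 CPM in Col1a1-high cells and 136 CPM in comparison cells, was not.

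**Figure D2:**
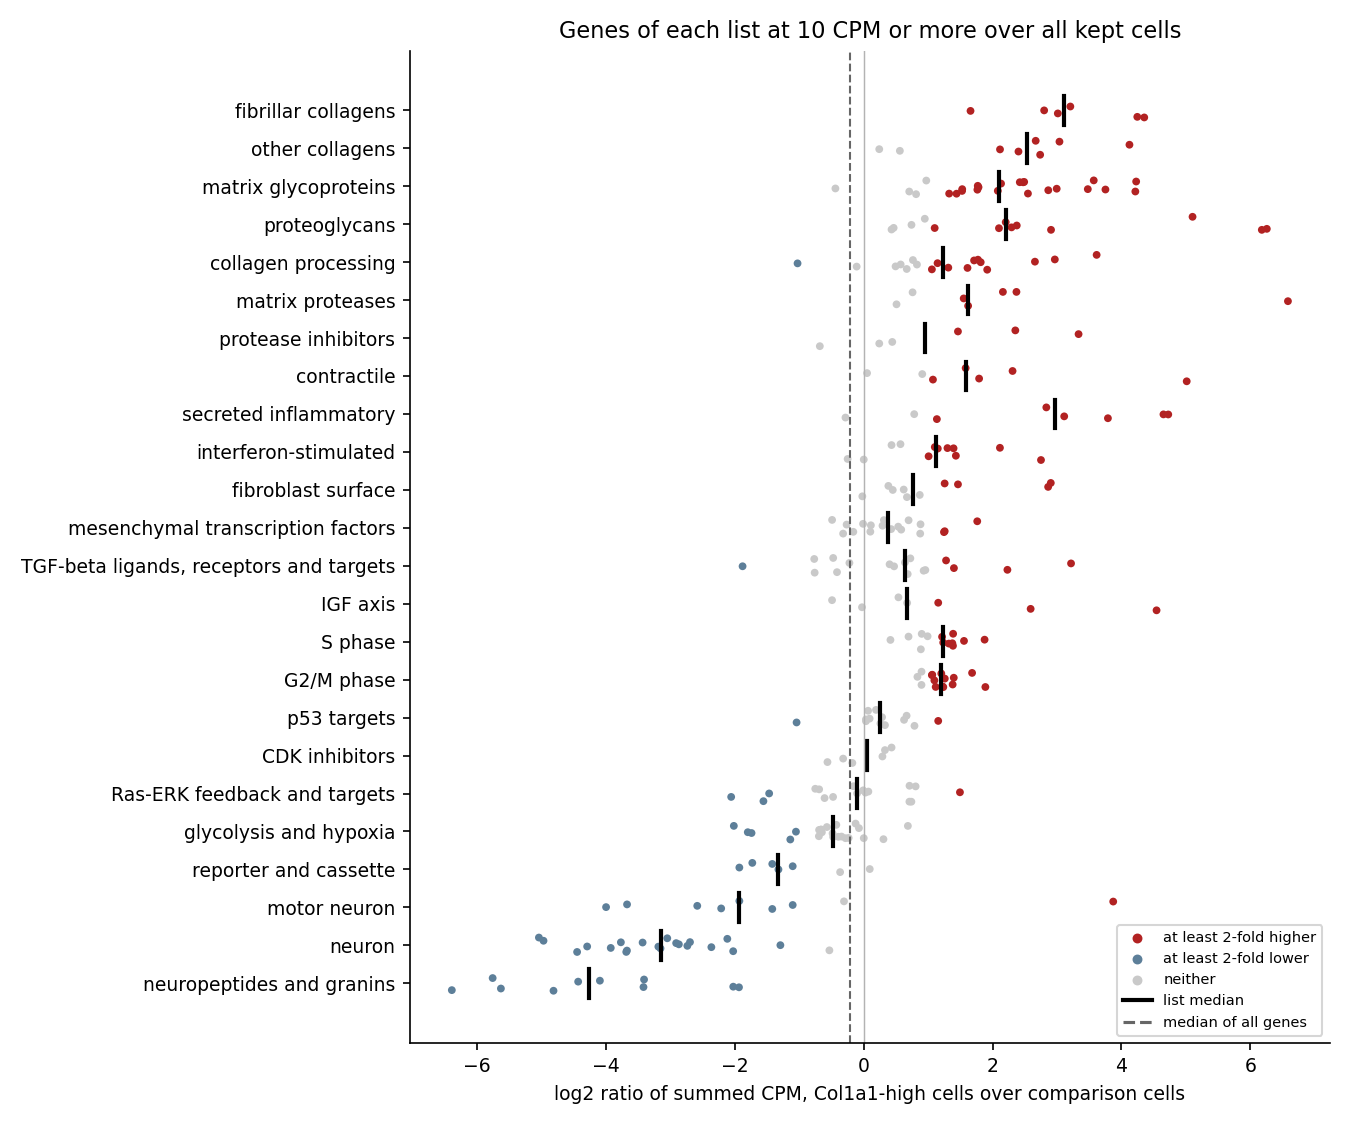
Log2 ratio of summed CPM, Col1a1-high cells over comparison cells, for each gene of 24 lists that passed 10 CPM, without Col1a1 and Stmn2. Black bars are list medians and the dashed line is the median of all genes, -0.22; collagen lists lie at the right, neuropeptides at the left, and in the motor neuron list Slc5a7 stands alone at 3.87.

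Most mesenchymal transcription factors did not follow the matrix in this library. Of 18 such factors 3 were higher and none lower, with a median log2 ratio of 0.37, against 6.34% higher and 14.3% lower of all genes. Prrx1, a limb and connective tissue homeobox factor, had 414 CPM in Col1a1-high cells and 497 CPM in comparison cells, and Twist1, a regulator of mesenchyme, had 142 CPM in Col1a1-high cells and 116 CPM in comparison cells. Prrx2, Snai1 and Hic1 were the 3 higher ones, at log2 ratios of 1.76, 1.25 and 1.26. Of 12 fibroblast markers outside the rule 8 were higher. Among these, Mmp3, Mgp, H19 and Lox had been chosen as markers with earlier results of these data known. The other higher ones were Col1a2, Col3a1, Dcn and Lum. Pdgfra, Thy1, Twist1 and Prrx1 were not higher. Pdgfra, a receptor for platelet-derived growth factor, had 107 CPM in Col1a1-high cells and 69.9 CPM in comparison cells. Comparison cells of this library thus carried these 4 transcripts within 2-fold of the Col1a1-high cells, although most matrix transcripts were far lower in them. With supplements at 14 dpi 8 of 18 mesenchymal transcription factors were higher and 1 lower (median 0.76), against 6.31% and 17.2% of all genes. Twist1 (1.35) and Thy1 (1.84) were higher there, and Prrx1 and Pdgfra were not. At 4 dpi Thy1 (2.57) and Pdgfra (1.11) were higher, and Prrx1 and Twist1 were not.

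Markers of epithelium, endothelium, leukocytes, Schwann cells and skeletal muscle were scarce in the Col1a1-high cells. The summed level was 2.47 CPM for 7 epithelial markers, 1.65 CPM for 6 endothelial, 4.52 CPM for 7 leukocyte, 6.72 CPM for 7 Schwann or neural crest and 0.411 CPM for 7 skeletal muscle markers. The same sums in comparison cells were 12.8, 2.73, 9.58, 8.60 and 5.43 CPM. Other lists were not at that floor. Adipocyte markers summed to 146 CPM in Col1a1-high cells and 21.6 CPM in comparison cells, and both that passed the filter were higher, among them the fatty acid carrier Fabp4 at 78.0 CPM and 4.79 CPM. Astroglial markers summed to 80.3 CPM in Col1a1-high cells and 24.4 CPM in comparison cells, nearly all of it the glutamate transporter Slc1a3. Smooth muscle markers summed to 164 CPM and 5.65 CPM, osteoblast markers to 1402 CPM and 365 CPM, chondrocyte markers to 105 CPM and 93.1 CPM, and pericyte markers to 36.3 CPM and 29.3 CPM, in Col1a1-high and comparison cells. The part of such cells in the other differences was not tested. Spp1, osteopontin, had 1310 CPM in Col1a1-high cells and 310 CPM in comparison cells, and 82.6% of its UMIs came from the top 10% of Col1a1-high cells. Tagln, an actin-binding protein of smooth muscle and myofibroblasts, had 127 CPM in Col1a1-high cells and 3.93 CPM in comparison cells, with 97.7% of its UMIs in the top 10%. Acta2, the smooth muscle actin, was low at 35.4 CPM in Col1a1-high cells and 0.86 CPM in comparison cells. Of 7 contractile genes over the filter 5 were higher and none lower.

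Inflammatory and interferon genes accompanied the matrix genes. For scale, 6.34% of all genes were higher and 14.3% lower. Of 8 secreted inflammatory genes 6 were higher and none lower (median log2 ratio 2.97), with Cxcl12 at 113 CPM in Col1a1-high cells and 15.8 CPM in comparison cells. Of 12 interferon-stimulated genes 8 were higher and none lower (median 1.13), led in level by Ifitm3, a membrane protein that blocks viral entry, at 2202 CPM in Col1a1-high cells and 508 CPM in comparison cells. Of 7 insulin-like growth factor axis genes 3 were higher and none lower (median 0.68). Igfbp3, a binding protein, had 1893 CPM in Col1a1-high cells and 314 CPM in comparison cells, while Igfbp5 had 907 CPM in Col1a1-high cells and 923 CPM in comparison cells. Imprinted genes went both ways, with 6 of 18 higher and 4 lower, the latter nearer to the share of all genes. Mest and Dlk1 were among the higher ones (log2 ratios 1.53 and 2.25), and Nnat and Snrpn among the lower (-4.90 and -3.22).

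More of the Col1a1-high cells carried division transcripts. Of 13 S phase genes 8 were higher and of 15 G2/M genes 12, with none lower in either list and medians of 1.24 and 1.21. Cells with at least 5 G2/M UMIs were 22.1% of Col1a1-high cells and 8.30% of comparison cells. Without these cells on both sides the S phase median was 0.94, and 559 genes were higher, against 561 with them. The G2/M median was then 0.18, a fall brought about by removing cells on those same UMIs. No CDK inhibitor of 6 reached 2-fold in either direction, including Cdkn2a at 743 CPM in Col1a1-high cells and 550 CPM in comparison cells. Of 13 p53 targets 1 was higher (Phlda3) and 1 lower (Bbc3). Of 17 Ras-ERK genes Spry1 was higher, and Dusp4, Phlda1 and Areg were lower. Of all genes 6.34% were higher and 14.3% lower, so these few calls are no result about the p53 or Ras-ERK list. Of 80 ribosomal protein genes 1 was called, but their median log2 ratio was 0.47, and they took 25.2% of UMIs in Col1a1-high cells and 17.7% in comparison cells.

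The neuronal gene lists were lower. Comparison cells were not held to the Stmn2 limit of the rule, and 723 of them (27.0%) had 2 or more Stmn2 UMIs. Of 21 neuron genes other than Stmn2, 20 were lower and none higher, with a median log2 ratio of -3.15, and all 10 neuropeptide and granin genes were lower (median -4.26). Tubb3, neuronal beta tubulin, had 85.3 CPM in Col1a1-high cells and 622 CPM in comparison cells. Among genes at 50 CPM or more over all kept cells, the lowest ratios were those of Fstl5, a secreted follistatin-like protein, at 2.74 CPM in Col1a1-high cells and 91.6 CPM in comparison cells (log2 ratio -5.06), and of Nnat, at 5.90 CPM in Col1a1-high cells and 176 CPM in comparison cells. The glutamate receptor subunit Gria2 (-4.54), Snhg11 (-4.45), Resp18 (-4.35), Mapt (-4.29), Atp1b1 (-4.24), Rtn1 (-4.09), Pcsk1n (-4.09), Scg3 (-4.00), Ecel1 (-4.00) and Stmn4 (-3.92) followed. Against the 1953 comparison cells with at most 1 Stmn2 UMI, where 11.1% of genes were lower, the same counts of neuron and neuropeptide genes were lower, with medians of -2.61 and -3.35. Single genes moved further with that limit: Snhg11 was -2.96, Rtn1 -2.13, Mapt -3.22 and Tubb3 -2.47. Of 11 Hox genes over the filter 8 were lower and none higher.

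One cholinergic gene went the other way. Slc5a7, the high-affinity choline transporter that supplies acetylcholine synthesis, had 110 CPM in Col1a1-high cells and 7.52 CPM in comparison cells, a log2 ratio of 3.87 (3.66 to 4.09). A UMI of it was found in 47.2% of Col1a1-high cells and 6.09% of comparison cells, or in 23.7% and 2.04% after thinning. The other cholinergic genes did not accompany it: Slc18a3, the vesicular acetylcholine transporter, had 1.37 CPM in Col1a1-high cells and 17.5 CPM in comparison cells, and Chat, choline acetyltransferase, 0.41 CPM and 5.16 CPM. Slc5a7 was likewise higher in the cells that met the rule in the other libraries. It had 113 CPM in Col1a1-high cells, a log2 ratio of 2.90 over comparison cells with supplements at 14 dpi, and 152 CPM (29 UMIs) in Col1a1-high cells and 26.8 CPM in comparison cells at 4 dpi. Of 9 motor neuron genes over the filter it was the 1 that was higher, and 7 were lower, against 14.3% of all genes lower. The 7 include Mnx1 and the cassette gene Lhx3, which are also given by themselves below.

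Although every cell passed the reporter gate, the reporter transcript was low in most Col1a1-high cells. v.EGFP had 681 CPM in Col1a1-high cells and 2257 CPM in comparison cells, a log2 ratio of -1.73 (-1.77 to -1.69). Of the 562 Col1a1-high cells 196 (34.9%) had no v.EGFP UMI, 120 had 1 or 2, 158 had 3 to 9 and 88 (15.7%) had 10 or more. Of comparison cells 156 (5.83%) had none and 1803 (67.4%) had 10 or more. The median cell held 162 CPM among Col1a1-high cells (quartiles 0 and 530 CPM) and 1589 CPM among comparison cells (quartiles 762 and 3023 CPM). After thinning, v.EGFP was seen in 46.5% of Col1a1-high cells and 89.6% of comparison cells. The top 10% of Col1a1-high cells held 72.8% of their v.EGFP UMIs, so the summed level is set by few cells. Relative to comparison cells, v.EGFP stood at 30.2%. Fstl5, the lowest of the genes at 50 CPM or more over all kept cells, stood at 2.99%, and the neuropeptide Nts at 1.19%. In these sums other neuronal genes lay closer to v.EGFP. Gal had 327 CPM in Col1a1-high cells and 1250 CPM in comparison cells, Gap43 181 CPM and 933 CPM, and Tubb3 85.3 CPM and 622 CPM. The Gal sum was also set by few cells. By the clusters described below, Gal was 14.2 CPM in 301 Col1a1-high cells, 13.8 CPM in 131 and 195 CPM in 87. In 10 others it was 4446 CPM.

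Transcripts of the cassette's transcription factors, introduced and endogenous together, were lower in Col1a1-high cells. Neurog2, a proneural factor, had 50.9 CPM in Col1a1-high cells and 127 CPM in comparison cells (log2 ratio -1.32). Lhx3 had 25.8 CPM in Col1a1-high cells and 68.9 CPM in comparison cells (-1.42), and Isl1 had 34.7 CPM and 74.4 CPM (-1.10); both are motor neuron homeobox factors. Mnx1 itself was sparse, at 6.85 CPM in Col1a1-high cells and 26.1 CPM in comparison cells (-1.93). At least 1 UMI of Lhx3, Neurog2 or Isl1 was found in 274 Col1a1-high cells (48.8%) and in 2095 comparison cells (78.3%). Neither these nor v.EGFP were detected in 133 Col1a1-high cells and 67 comparison cells, which at this depth does not show that they are absent. Hras differed by a log2 ratio of -0.37, at 99.7 CPM in Col1a1-high cells and 128 CPM in comparison cells, and Trp53 by 0.09, at 101 CPM and 94.2 CPM.

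Reporter level followed the amount of Col1a1 across all cells with at most 1 Stmn2 UMI. v.EGFP was 2338 CPM in cells with no Col1a1 UMI, 1957 CPM at 1 or 2, 1530 CPM at 3 or 4 and 1302 CPM at 5 to 9. It was 1140 CPM at 10 to 14, 838 CPM at 15 to 19, 723 CPM at 20 to 29, 308 CPM at 30 to 49 and 280 CPM at 50 or more. Median depth lay between 9175.5 and 11292 UMIs in all bins but the last, where it was 14765. Neurog2 was 110 CPM at no Col1a1 UMI and 27.8 CPM at 50 or more, while Trp53 was 102 CPM and 83.4 CPM, and Prrx1 546 CPM and 401 CPM. Slc5a7 was 5.95 CPM at no Col1a1 UMI and 147 CPM at 50 or more. Mmp3 was highest at 20 to 29 UMIs, at 768 CPM, and 446 CPM in the top bin.

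**Figure D3:**
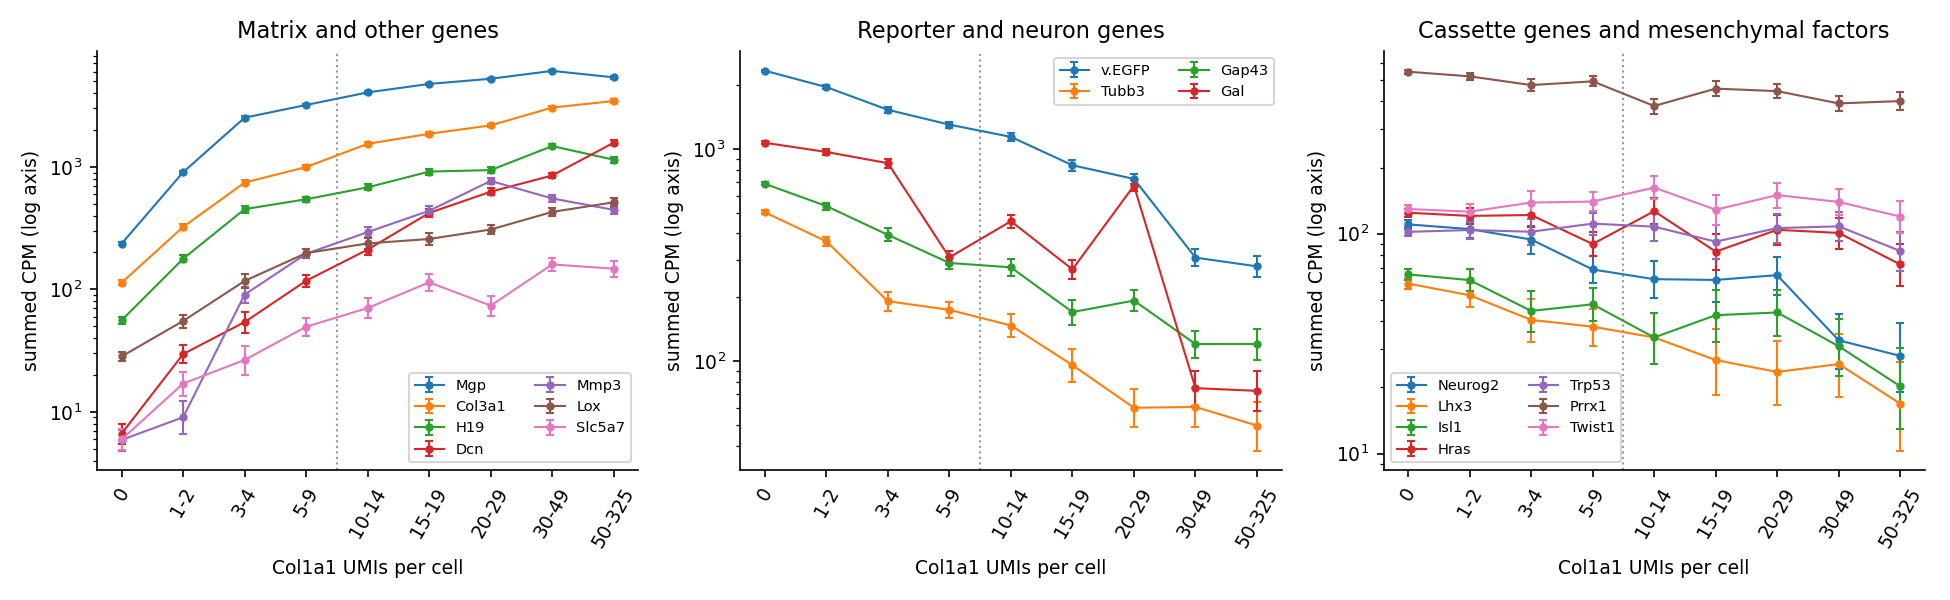
Summed CPM (log axis) in cells with at most 1 Stmn2 UMI, grouped by Col1a1 UMIs, with exact Poisson 95% intervals; the dotted line marks the rule's limit of 10 UMIs. Matrix genes and Slc5a7 are higher in the top bin than at 0, v.EGFP declines in each successive bin to 280 CPM, and Trp53, Prrx1 and Twist1 stay within 2-fold.

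The Col1a1-high cells were not uniform. In a clustering of the library without Col1a1 and Stmn2, 301 of them (53.6%) lay in a cluster led by Dcn, Mmp3, Ogn and Tagln, of which they were 72.2%. A second cluster, led by Igfbp3, Crym, Col12a1 and Tgfbi, held 131 (23.3%), and another, led by the division genes Top2a and Mki67, held 87 (15.5%, against 6.20% of comparison cells). The remaining 43 were spread over the others. The 301 cells had 810 CPM of Mmp3, 1165 CPM of Dcn, 391 CPM of Ccl2 and 220 CPM of v.EGFP. The 131 cells had 227 CPM of Mmp3, 216 CPM of Dcn, 28.8 CPM of Ccl2 and 545 CPM of v.EGFP, and the highest Igfbp3, 2990 CPM. Slc5a7 was present in all 3 groups, at 151, 77.2 and 107 CPM.

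A handful of cells that met the rule did not resemble the rest. In a cluster led by Mgst1, Rprml and Wee2, 10 Col1a1-high cells had 6208 CPM of v.EGFP, 4446 CPM of Gal, the neuropeptide galanin, and 1094 CPM of Tubb3. They had 33.1 CPM of Mgp and no UMI of Mmp3, Dcn or Lum, and a median of 20973 UMIs, against 11265 over all Col1a1-high cells. Without these 10 cells the v.EGFP log2 ratio was -2.13, and in the 519 cells of the 3 main clusters, which leave out 43 cells, it was -2.69, against -1.73 over all 562. Without the cells in the top 5% of doublet scores it was -1.92.

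**Figure D4:**
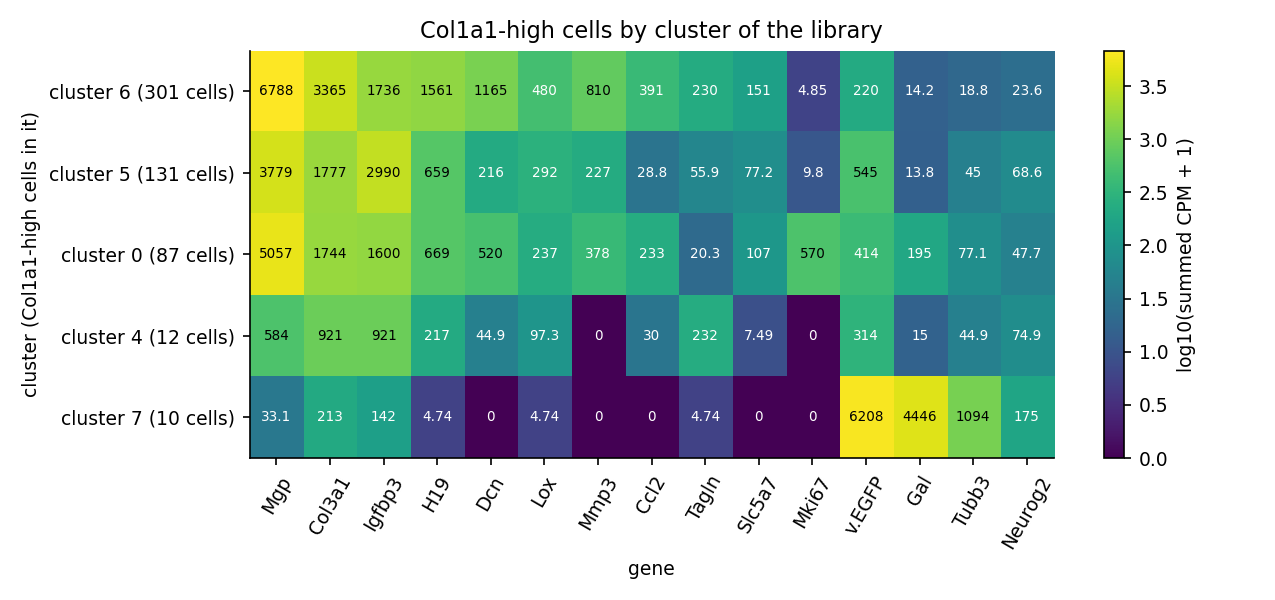
Summed CPM (numbers; colour on a log10(CPM + 1) scale) of 15 genes in the Col1a1-high cells of each cluster that held at least 10 of them. The 3 upper rows share high Mgp and Slc5a7, Mki67 is high in cluster 0 alone among these rows, and the 10 cells of cluster 7 carry v.EGFP, Gal and Tubb3.

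Splits among the Col1a1-high cells gave the genes that vary with Mmp3 and with v.EGFP. The 53 cells with at least 10 Mmp3 UMIs, set against the 473 with at most 2, had 179 of 8320 genes at least 2-fold higher (2.15%) and 333 lower (4%). Among genes at 50 CPM or more over all Col1a1-high cells, the highest were the opioid precursor Penk, at 472 CPM in Mmp3-high and 18.3 CPM in Mmp3-low cells (log2 ratio 4.69), Angptl7 (4.47), the chemokine Ccl5 (4.33), the cytokine Tslp (3.89), the tachykinin precursor Tac1 (3.87) and Ccn3 (2.49). Of 11 secreted inflammatory genes 9 were higher and 1 lower. Col1a1 was 2224 CPM in both sets, so their Col1a1 level was matched. Fgfbp1 (-5.85), Chgb, Chodl, Ina, Tubb3 and Trp53i11 were lowest. Of these, Chgb and Tubb3 had 2688 and 587 UMIs in the Mmp3-low cells. The 24 Col1a1-high cells with at least 10 v.EGFP UMIs outside the 3 main clusters held 1687 and 336 UMIs. The Mmp3 split was not repeated in the 3 main clusters, so the part of those 24 cells was not tested.

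The 88 cells with at least 10 v.EGFP UMIs, set against the 316 with at most 2, had 417 of 8320 genes higher (5.01%) and 271 lower (3.26%). Of 15 neuron genes 14 were higher (median log2 ratio 3.08), and so were all 5 neuropeptide and granin genes. Gal had 1347 CPM in v.EGFP-high and 13.3 CPM in v.EGFP-low cells (log2 ratio 6.67), and Chgb, Ina, Nhlh2, Pcp4 and Elavl4 came next among genes at 50 CPM or more over all Col1a1-high cells. Few cells set the Gal level: the 24 v.EGFP-high cells outside the 3 main clusters held 2014 of its 2310 UMIs there. In the 3 main clusters (64 v.EGFP-high and 309 v.EGFP-low cells) Gal had 246 CPM in v.EGFP-high and 13.3 CPM in v.EGFP-low cells (log2 ratio 4.21), and 13 of the 15 neuron genes were higher (median 2.14), against 3.02% of all genes. Neurog2 had 96.8 CPM in v.EGFP-high and 27.1 CPM in v.EGFP-low cells (1.84), and Lhx3 and Isl1 differed by 1.29 and 1.39. Lowest were Tagln (-3.35), Tac1, Apod, Thbs2, Penk and Postn, and 12 of 27 matrix glycoproteins were lower with none higher, or 7 of 27 in the 3 main clusters, against 2.24% of all genes. The v.EGFP-high cells were deeper, at a median of 18467 UMIs against 9675, since the split used raw UMIs, and the part of depth in these differences was not tested.

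Cells of both sexes were present. Xist UMIs without Y-linked UMIs were found in 231 Col1a1-high cells (41.1%) and 1402 comparison cells (52.4%), and Y-linked UMIs without Xist in 242 (43.1%) and 824 (30.8%). Among Col1a1-high cells, Xist-only cells had 1022 CPM of v.EGFP and Y-only cells 335 CPM, and Gal differed in the same direction, at 683 CPM and 76.7 CPM. These levels rest on few cells: the 23 Xist-only cells outside the 3 main clusters held 2184 of 2880 v.EGFP UMIs and 1899 of 1924 Gal UMIs. In the 3 main clusters v.EGFP was 292 CPM in Xist-only cells and 322 CPM in Y-only cells (log2 ratio -0.14), and Gal was 10.5 CPM and 79.5 CPM (-2.92), so the direction turned, and 24 genes were higher (0.288%) and 53 lower (0.637%) in Xist-only cells. Over all clusters, of 8320 genes 90 were higher (1.08%) and 44 lower (0.529%) in Xist-only cells. The markers Mmp3, Mgp, H19 and Lox differed by log2 ratios of -0.56, -0.19, 0.14 and -0.16. Also over all clusters, within each class v.EGFP was lower in Col1a1-high than in comparison cells, by a log2 ratio of -1.16 for Xist-only and -2.77 for Y-only cells.

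The rule found far fewer cells in the other libraries. With supplements it found 73 of 2314 cells at 14 dpi (3.15%, 2.48 to 3.95%), and at 4 dpi, where most cells were much shallower, 63 of 4492 (1.40%, 1.08 to 1.79%). Depth at 14 dpi was higher with supplements, at a median of 14271 UMIs in Col1a1-high cells. With limits scaled to depth the rule found 537 cells without and 53 cells with supplements. The part of depth in the difference between libraries was not tested. The ratios to comparison cells had much in common at 14 dpi. With supplements 553 of 8758 genes were higher (6.31%) and 1506 lower (17.2%). Of the 414 genes higher without supplements that passed the filter in both libraries, 297 were higher with supplements too (71.7% of these and 57.2% of the 519 higher with supplements). Of 1156 lower genes 842 were shared (72.8% and 64.3% of 1310). Among the higher genes the call was opposite with supplements for 2, picked out after their values were seen: relative to comparison cells, Fabp4 and Cxcl10 were higher in Col1a1-high cells without supplements and lower in those with them. At 4 dpi 498 of 8300 genes were higher (6%) and 392 lower (4.72%). Less was shared there. Of 513 genes higher at 14 dpi without supplements and measured in both, 200 were higher at 4 dpi (39.0%) and 9 lower. Of 687 lower genes 106 were lower at 4 dpi (15.4%) and 11 higher. Of 14 S phase genes none was higher at 4 dpi and 5 were lower (median log2 ratio -0.81).

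Direct comparison of the 562 Col1a1-high cells without supplements with the 73 with supplements gave 446 of 8418 genes higher without supplements (5.3%) and 494 lower (5.87%). Lox was among the highest, at 341 CPM without and 32.0 CPM with supplements (log2 ratio 3.41, 2.95 to 3.92), and in comparison cells it was 27.8 CPM without and 11.8 CPM with. In Col1a1-high cells Tslp was 85.4 CPM without and 5.19 CPM with supplements (4.04). Rgcc (3.89), Fabp4 (3.49), Kif21a (3.41), Fgfbp1 (3.24), Lcn2 and the alarmin Il33 (3.07) were also high. In comparison cells Fgfbp1 (3.42) and Il33 (3.14) differed about as much. Rgcc (1.93), Lcn2 (1.61), Tslp (0.95) and Kif21a (0.94) differed less there, and Fabp4 went the other way (-2.92). Mmp3 in Col1a1-high cells was 501 CPM without and 199 CPM with supplements, and Mgp 5082 CPM and 1796 CPM. With supplements a UMI of Mmp3 was found in 13 of the 73 Col1a1-high cells, of Lox in 14 and of Lcn2 in 6. The top 10% of the 73 cells held 97.8% of Mmp3 UMIs and 83.8% of Lox UMIs, so these levels rest on few cells. Col1a1-high cells at 4 dpi, given beside these, had 126 CPM of Lox, 73.4 CPM of Mmp3 (14 UMIs) and 1310 CPM of Mgp.

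Of 16 proteoglycans 4 were higher and 3 lower without supplements (median log2 ratio 0.29), and Dcn and Lum were among the lower. Dcn was 695 CPM without and 3531 CPM with supplements (log2 ratio -2.35), Lum 263 CPM and 1453 CPM (-2.47), and keratocan, Kera, 9.19 CPM and 189 CPM (-4.36). Comparison cells differed in the same direction, by -2.65 for Dcn, -2.92 for Lum and -4.05 for Kera, which was sparse there (1.02 CPM with supplements). Col1a1-high cells at 4 dpi had 2924 CPM of Dcn and 791 CPM of Lum. Igf1, insulin-like growth factor 1, was 19.5 CPM without and 394 CPM with supplements in Col1a1-high cells (-4.34). Col15a1 (-4.10), Calb1 (-4.08), Vstm2b (-4.54) and Cxcl13 (-5.36) were also low. In comparison cells Igf1 (-4.11), Col15a1 (-2.71), Calb1 (-3.07) and Vstm2b (-3.29) were lower too, and Cxcl13 was nearly absent (0.0581 CPM with supplements). In Col1a1-high cells Mcpt4 and C1ql2 had no UMI without supplements, against 71 and 59 UMIs with them. They were thus at least 149-fold and 124-fold lower, counting 3 UMIs over the group as the floor. Col3a1 was 2366 CPM without and 4418 CPM with supplements (-0.90), Col1a2 3418 CPM and 2705 CPM (0.34), and Slc5a7 110 CPM and 113 CPM (-0.03). v.EGFP was 681 CPM without and 480 CPM with supplements (0.51), and 15.7 CPM at 4 dpi (3 UMIs).

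Gene groups differed between the supplement conditions too. In Col1a1-high cells 5.3% of all genes were higher without supplements and 5.87% lower. Of 21 glycolysis and hypoxia genes 17 were higher without supplements and none lower (median log2 ratio 1.58), with Pgk1 at 919 CPM without and 306 CPM with supplements and Bnip3 at 200 CPM and 45.0 CPM. Comparison cells showed the same direction in 22 of 23 of these genes (median 1.76), where 353 of 8842 genes were higher (3.99%) and 311 lower (3.52%). Of 14 p53 targets 6 were lower and none higher in Col1a1-high cells (median -0.85), among them Ccng1 at 71.8 CPM without and 188 CPM with supplements. In comparison cells 1 of 13 p53 targets was lower and none higher (median -0.54). Of 22 mesenchymal transcription factors in Col1a1-high cells 7 were lower and 1, Meox1, was higher (median -0.37). In comparison cells 4 of 18 such factors were lower and 1 higher (median -0.06). None of 12 interferon-stimulated genes reached 2-fold in either kind of cell.

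**Figure D5:**
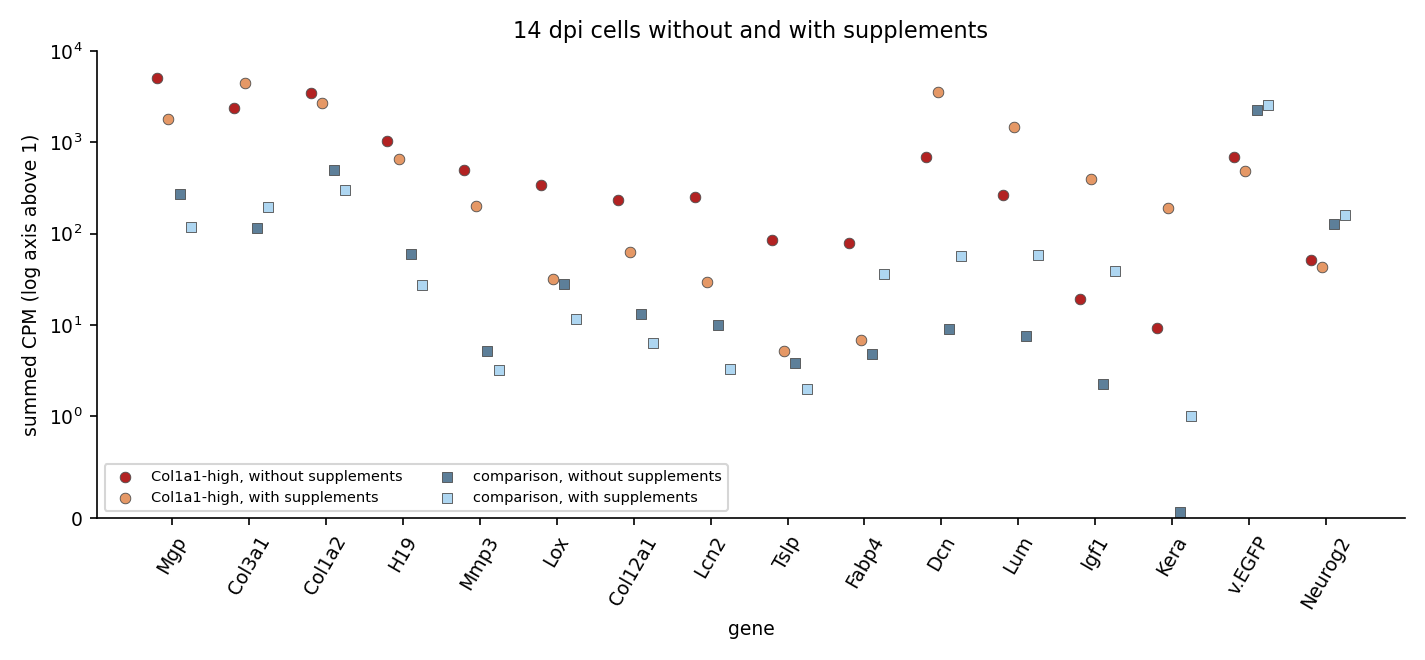
Summed CPM (axis logarithmic above 1) of 16 genes at 14 dpi in Col1a1-high cells without and with supplements and in comparison cells without and with supplements. Without supplements Lox, Lcn2 and Tslp are higher and Dcn, Lum, Igf1 and Kera lower in both Col1a1-high and comparison cells. Fabp4 differs in opposite directions in Col1a1-high and comparison cells.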

How the data were processed

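The 3 10x Genomics 3′ v3.1 libraries were analysed, 1 per group, so spread between cultures is unknown. The deposited matrices hold raw UMI counts per gene and barcode, made with Cell Ranger 6.1.1, per the file headers, on GRCm39, per the submitters' processing notes. Cells with at least 500 genes and at most 20% mitochondrial UMIs were kept. UMIs were summed over cells and divided by the summed total as CPM, with exact Poisson 95% intervals; log2 ratios have exact binomial intervals. A gene was called at 2-fold with an interval excluding 0, among genes at 10 CPM over all kept cells, or by the mean of the 2 groups between libraries. The intervals were tested on simulated data. Named genes were the markers, reporter and cassette genes, the 12 highest and 12 lowest ratios at 50 CPM or more, and list examples. The members and lists were chosen with earlier results of these data known. Sums held 7294171 UMIs in Col1a1-high and 32568800 in comparison cells. Clustering used the Leiden algorithm, and doublet scores Scrublet, in scanpy 1.11.5 (Python 3.11.15, scipy 1.17.1). No coordinates or sequences are given, since the reference tables are of another build.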

Additional observations from a re-analysis of the deposited data

Results flagged for a closer look

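Fabp4, a fatty acid binding protein of fat cells, differed in opposite directions between the supplement conditions in the 2 kinds of cells. In Col1a1-high cells its log2 ratio, without over with supplements, was 3.49 (78.0 CPM without and 6.93 CPM with supplements, the second from 8 UMIs). In comparison cells it was -2.92 (4.79 CPM without and 36.4 CPM with supplements). With 1 library per condition this difference was not tested.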

How the results depend on the processing

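The counts of 561 higher and 1262 lower genes became 1584 and 2714 with no filter on low genes and 160 and 388 at 50 CPM or more. Under the other alternatives both stayed within 1.5 times. The share of 15.1% became 21.9% at 5 Col1a1 UMIs and 8.23% at 20.

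The v.EGFP log2 ratio of -1.73 kept its sign under every alternative run. It was -1.40 at 5 Col1a1 UMIs, -2.32 at 20, -2.46 with limits scaled to depth and -1.63 with no limit on Stmn2. It was -2.26 in cells of 5000 to 20000 UMIs, -1.92 without the top 5% of doublet scores and -2.10 as a mean of per-cell CPM. It was -1.60 with totals that leave out mitochondrial, ribosomal and collagen genes, a scaling that moves all log2 ratios by 0.13. It was -1.16 in Xist-only cells and -2.77 in Y-only cells. Among alternatives chosen after seeing the data, it was -2.69 in the 3 main clusters, -2.13 without the 10 cells of cluster 7 and -1.58 without cells of 5 or more G2/M UMIs. The v.EGFP and Xist splits in the 3 main clusters were also chosen after seeing the data. Why these values moved was not tested. No called value of the other genes and lists reversed: 988 values stayed within the interval (for list medians, within 0.25) and 332 moved further. No paired analysis was possible because each group holds 1 library. Depth limits single-cell absence: a gene near 10 CPM is missed in most cells.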
